A study of Mus musculus with 33 samples.

Results

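The comparison described here set undifferentiated mESCs of an Apex1-mutant clone against control mESCs. The members were chosen by their labels alone, as the libraries labelled mESCs_Apex1_KO and mESCs_Control. There were 5 such libraries among the 33 of the series. The 2 Apex1 libraries were technical duplicates of 1 clone, #46, and the 3 control libraries came from 3 independent clones, #1, #4 and #7. All lines were made from E14TG2a, a male mouse embryonic stem cell line, which was kept on gelatin in medium with serum and LIF. The mutant carried a CRISPR/Cas9 deletion in Apex1, and the controls had received the empty Cas9 plasmid and the same selection. The parental cells were first positive for Mycoplasma and were cleared of it before use. Because the mutant was 1 clone, effects of the Apex1 deletion and other peculiarities of clone #46 cannot be told apart.

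Apex1 encodes the main endonuclease of base excision repair, which cuts the DNA strand at sites where a DNA glycosylase has removed a damaged base. Polymerase beta, ligase III with its partner XRCC1, and PARP1 act around the same step. The protein is also known as Ref-1, for its role in keeping AP-1 and other transcription factors in a reduced, DNA-binding state. When strand breaks or stalled repair activate p53, the transcription factor induces genes of cell cycle arrest, cell death and its own feedback control, and mouse embryonic stem cells also respond to p53 by losing self-renewal factors. The comparison addressed which of these programmes differed in undifferentiated cells.

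The guides and the stretch upstream of the gene are shown because they decide what the Apex1 count can measure. Apex1 (ENSMUSG00000035960) lies on the plus strand of NCBIM37 at chr14:51544643-51546814 and has 5 exons. Both guides matched the plus strand of chromosome 14 at a single place each. The capitals mark the PAM, the motif next to the guide that Cas9 requires.
Guide 1, chr14:51546001-51546023: tgcccgctaaaagtctcttaTGG
Guide 2, chr14:51546586-51546608: aagatccggtccaaggctctTGG

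Guide 1 lies near the end of exon 4 and guide 2 lies in the coding part of exon 5. The predicted cuts are 585 bases apart and enclose 483 of the 951 coding bases, among them codon 209, GAT, at chr14:51546319-51546321, which encodes the aspartate of the active site. The exons of a neighbour on the minus strand, Tmem55b (ENSMUSG00000035953), cover all of exons 4 and 5 of Apex1, which is 877 of the 1422 exon bases over all annotated Apex1 transcripts. The library kit does not mark the strand, so reads in the shared bases cannot be assigned to either gene, and HTSeq-count sets them aside as ambiguous when it counts without strand. The strand setting of the counting is not given. Counting a library of this kind by strand would have left a large share of all its reads without a feature. In the mESC libraries 6.18% to 7.72% of all reads had no feature. Counted without strand, the Apex1 count came from the other 545 exon bases of these transcripts, and 0 of them lie between the cuts. In that case the gene's total count is no check of the deletion.

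The Apex1 count was higher in the mutant. The values are CPM, which scale each library to the same total count after TMM normalization. Apex1 had 8.03, 7.61 and 17.7 CPM in control clones #1, #4 and #7, and 74.5 and 70.8 CPM in the 2 Apex1 libraries. Both Apex1 libraries lay far above the controls, and above the range of 6.08 to 21.6 CPM in the Neil1- and Neil2-mutant mESC clones. On the log2 scale the mutant exceeded the controls by 2.72 (standard error 0.45, FDR 0.0438), or by 3.22 without control clone #7 (FDR 0.00437). The higher count recurred in EBs, aggregates of differentiating cells, with 57.4 and 82.4 CPM against 12.0 to 14.9 CPM in the controls, and in EBs treated with retinoic acid (EBs + RA), with 69.6 and 61.1 CPM against 13.3 to 15.2 CPM.

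Apex1 starts head to head with Osgep (ENSMUSG00000006289), which encodes a subunit of a complex that modifies tRNA. The stretch between their starts is shown because the counts of both genes differed in the mutant, and in opposite directions. It holds 74 bases of NCBIM37, read on the plus strand. The capitals mark CACGTG, the palindromic E-box, which was searched on both strands.
Between Osgep and Apex1, chr14:51544569-51544642: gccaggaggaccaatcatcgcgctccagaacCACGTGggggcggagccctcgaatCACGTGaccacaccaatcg

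The E-box occurs 2 times here and in 2.49% of 32851 RefSeq promoters (GRCm38.p6) within the same number of bases before the start. CCAAT, on either strand, occurs 2 times and in 14.0% of those promoters. In mESCs Osgep had 32.1, 36.1 and 25.5 CPM in the controls and 14.7 and 15.9 CPM in the Apex1 libraries, which lay below every control (log2 fold change −1.03, standard error 0.24, FDR 0.0841). Tmem55b, a lysosomal membrane protein, had 39.7, 37.3 and 36.2 CPM in the controls and 19.8 and 24.7 CPM in the mutant (−0.77, standard error 0.19, FDR 0.0887). The 483 Apex1 coding bases between the predicted cuts lie in exons 4 and 5, which exons of Tmem55b cover. The predicted deletion therefore removes exon bases of Tmem55b too. Counted without strand, reads in the bases shared with Apex1 enter neither count. The part of the deletion in the Tmem55b count was not tested. In EBs and EBs + RA neither neighbour was below all controls in both Apex1 libraries. There Osgep had 19.8 to 28.6 CPM in the Apex1 libraries and 16.6 to 28.0 CPM in the controls. Tmem55b had 32.7 to 40.7 CPM in the Apex1 libraries and 32.7 to 40.8 CPM in the controls.

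**Figure D1:**
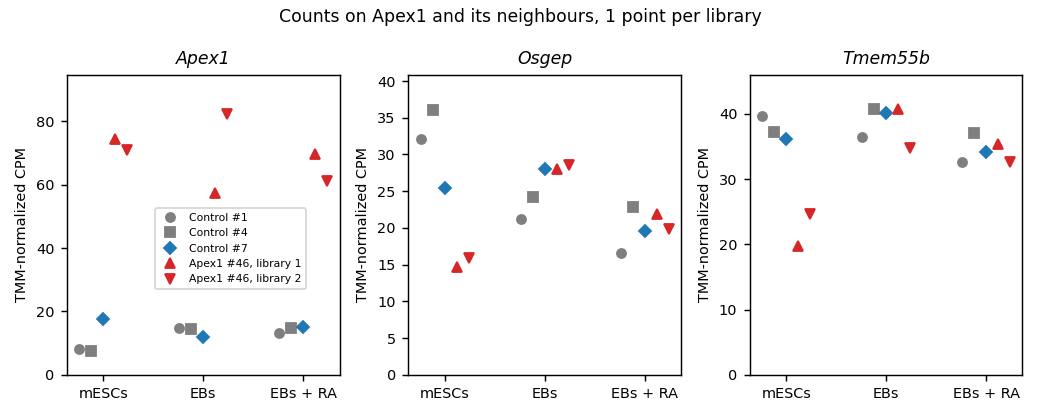
TMM-normalized CPM (vertical axis, from 0) of Apex1 and its neighbours Osgep and Tmem55b in mESCs, EBs and EBs + RA (horizontal axis), 1 point for each library. The 2 Apex1 libraries lie above all controls for Apex1 at every stage, from 57.4 to 82.4 CPM, and below them for Osgep and Tmem55b in mESCs only.

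Across the genome, 458 of 16958 tested genes were DE, which here means an FDR under 0.1 together with a log2 fold change beyond 0.5 in either direction. These were 2.70% of the tested genes. FDR is the Benjamini-Hochberg adjusted p of edgeR's quasi-likelihood test. Of the DE genes 266 were raised (1.57%) and 192 lowered (1.13%), 153 and 96 of them at least 2-fold. All 266 raised genes were above every control in both Apex1 libraries and all 192 lowered genes below every control, where 24.3% and 25.7% of all tested genes were so. The call of DE genes rests on these same libraries, so this adds no separate support. The 2 Apex1 libraries were summed and counted as 1 sample, and the spread between clones was estimated from the control, Neil1- and Neil2-mutant mESC clones together. With the control clones alone as the source of the spread, edgeR called 0 genes, while 2175 had an unadjusted p below 0.05.

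The 5 libraries held 26095930 to 29463154 counts on genes, so that depth differed little between the groups. Control clone #7 stood apart from the other controls. Over 11076 genes, its root mean square log2 difference was 0.508 and 0.481 from clones #1 and #4, which differed from each other by 0.218, and 0.462 and 0.433 from the Apex1 libraries. The Apex1 libraries differed from each other by 0.156. Without clone #7 the DE genes numbered 4050 (24.0% of 16890 genes), and they included all 458 of the fit with 3 controls. Without clone #1 there were 13 DE genes, and without clone #4 there were 0, with 2281 genes at an unadjusted p below 0.05 in edgeR. Without either Apex1 library the DE genes numbered 161 and 1142. Chromosome 12 had the highest median of all chromosomes in both libraries of clone #46 at every stage. Its median log2 difference from the mean of the controls was 0.169 and 0.134 in mESCs, where other chromosomes reached 0.141 and controls 0.136. It was 0.267 and 0.305 in EBs and 0.230 and 0.294 in EBs + RA, where other chromosomes of the clone reached 0.06 and 0.04. In mESCs 21 of its 565 tested genes were raised (3.72%) and 1 lowered, and the part of this chromosome in the results was not tested. The raised p53 targets described next lie on other chromosomes, and effects of chromosome 12 on genes elsewhere were not tested.

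Fold changes also moved with the length of the genes. The median log2 fold change was −0.31 in the shortest of 5 equal length classes, with up to 1751 exon bases, and 0.20 in the longest, from 5848 exon bases, against −0.03 over all tested genes. Control clone #7 deviated from the mean of the controls in the same direction, by −0.13 and 0.05, and by less than the Apex1 libraries. The 83 genes of cytoplasmic ribosomal proteins had a median of −0.55. Of these 75 were below every control and 0 above, against 25.7% and 24.3% of all tested genes. An additional fit, chosen after seeing these values, therefore removed the trend over exon length and GC content from each clone by an offset. It called 326 genes (1.93%), 213 raised and 113 lowered, of which 242 were shared with the first fit in the same direction. The part of RNA quality or library preparation in this trend was not tested.

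**Figure D2:**
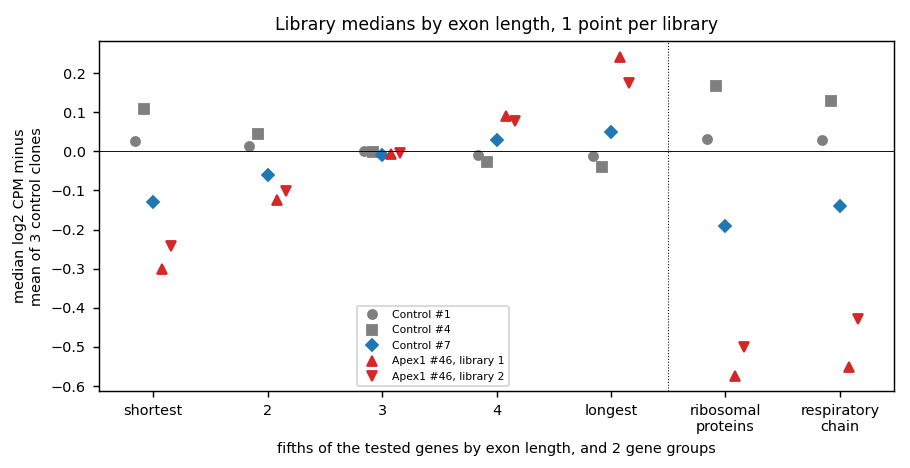
Median log2 CPM minus the mean of the 3 control clones (vertical axis) for 5 classes of tested genes by exon length, for ribosomal protein genes and for nuclear respiratory chain genes (horizontal axis), 1 point for each library. Medians of the Apex1 libraries run from −0.30 and −0.24 in the shortest class to 0.24 and 0.17 in the longest, with Control #7 deviating the same way by less.

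**Figure D3:**
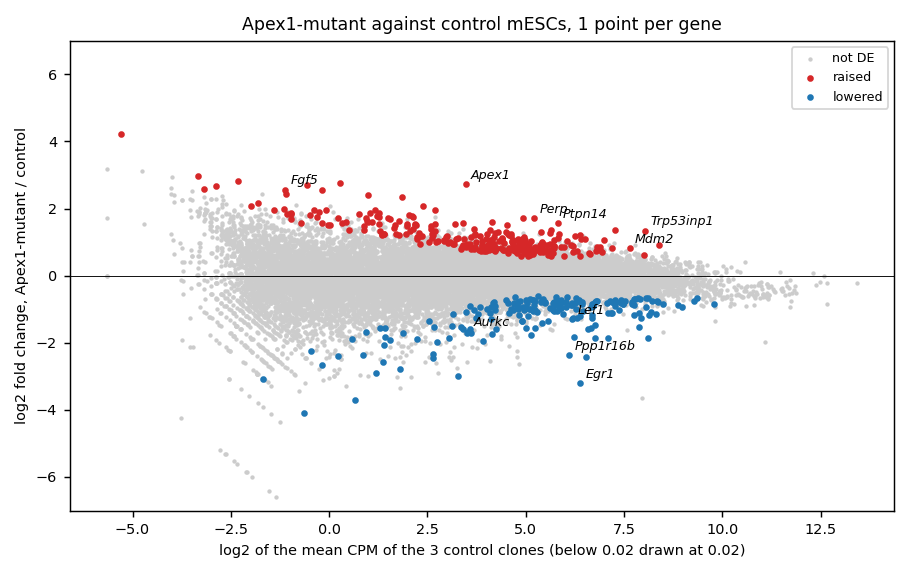
Log2 fold change of Apex1-mutant against control mESCs (vertical axis) over the log2 of the mean CPM of the controls (horizontal axis), 1 point for each tested gene. The 266 raised genes are red, the 192 lowered genes blue, and named genes are labelled.

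The raised genes included targets of p53 that act in arrest, feedback and cell death. Of 36 listed targets 35 were tested, and 11 of these were raised and 0 lowered, where 1.57% of all tested genes were raised. Their median log2 fold change was 0.36, against −0.03 over all tested genes. Both Apex1 libraries were above every control for 21 of the 35 and below for 4. Without control clone #7, 15 were raised and 2 lowered, where 11.8% and 12.2% of the tested genes were. With the offset for length and GC content, 10 were raised and 0 lowered, where 1.26% and 0.668% of the tested genes were. With the offset and without clone #7, 13 were raised and 1 lowered, against 9.43% and 8.59%. With the Apex1 libraries as separate samples, 14 were raised and 1 lowered, against 7.87% and 9.07%. DESeq2 gave 14 raised and 0 lowered, against 4.76% and 6.68%. With the spread from the control clones alone, 0 of the targets were called, as were 0 of all tested genes. The same held without clone #4.

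Targets that act in arrest and feedback held 8 of the raised genes, out of 18 tested, where 1.57% of all tested genes were raised. Trp53inp1 (ENSMUSG00000028211), a stress protein that enhances p53 activity, had 291, 265 and 235 CPM in the controls and 694 and 632 CPM in the mutant. The gene rose by 1.34 on the log2 scale (standard error 0.16), and its FDR of 0.0272 was the smallest reached by any gene. Mdm2 (ENSMUSG00000020184), the ubiquitin ligase that degrades p53, had 209, 192 and 200 CPM in the controls and 354 and 348 CPM in the mutant (0.81, standard error 0.16, FDR 0.0658).

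In the other raised genes of this class, too, the duplicates lay close together. Ccng1, cyclin G1, had 348, 362 and 303 CPM in the controls and 644 and 613 CPM in the mutant (0.90, standard error 0.17, FDR 0.0557). Plk2, a Polo-like kinase, had 99.0, 98.8 and 73.4 CPM against 190 and 191 CPM (1.08, standard error 0.18, FDR 0.0438). Zmat3, an RNA-binding protein, had 143, 144 and 155 CPM against 268 and 253 CPM (0.83, FDR 0.0628). For each of these 3 genes the groups did not overlap. Phlda3, an inhibitor of AKT, rose by 0.78 (FDR 0.0941), the microtubule protein gene Ckap2 by 0.71 (FDR 0.0723) and the p53 phosphatase gene Ppm1d by 0.65 (FDR 0.0887).

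Other members of the arrest and feedback class did not pass the test. Cdkn1a, which encodes the CDK inhibitor p21, had 69.5, 75.9 and 54.7 CPM in the controls and 86.9 and 91.3 CPM in the mutant (0.42, standard error 0.27, FDR 0.408). Both Apex1 libraries were above the controls, by less than the controls differed among themselves. The transcript of p53 itself, Trp53, had 293, 288 and 520 CPM in the controls and 333 and 336 CPM in the mutant (−0.13, standard error 0.33, FDR 0.845). The mutant lay between the controls, and control clone #7 was the highest library.

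In the cell death class 3 of 12 tested targets were raised, where 1.57% of all tested genes were. Perp (ENSMUSG00000019851), a membrane protein of desmosomes and apoptosis, had 40.6, 45.5 and 25.7 CPM in the controls and 118 and 124 CPM in the mutant (1.71, standard error 0.32, FDR 0.0557). Pmaip1, the BH3-only protein Noxa, had 45.3, 56.2 and 45.0 CPM against 118 and 115 CPM (1.26, standard error 0.18, FDR 0.0325). Apaf1, the core of the apoptosome, had 84.9, 74.7 and 62.9 CPM against 141 and 131 CPM (0.88, standard error 0.17, FDR 0.0628). With the offset Apaf1 had an FDR of 0.153. Bbc3, which encodes Puma, Bax and Fas were among the 9 that did not pass. The 5 targets in the DNA repair class, with Xpc and Ddb2, held 0 raised and 0 lowered genes, against 1.57% and 1.13% of all tested genes.

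Pmaip1 was also the only DE gene among 16 tested members of the BCL2 family, 1 raised and 0 lowered. Among all tested genes 1.57% were raised and 1.13% lowered. The anti-apoptotic Bcl2l1 had 29.9, 36.2 and 49.6 CPM in the controls and 59.9 and 63.3 CPM in the mutant (0.68, FDR 0.18). Of 18 tested cell cycle regulators 0 were raised and 1 lowered, against the same shares of all genes. This was Ccnd3, cyclin D3, with 249, 267 and 278 CPM in the controls and 136 and 143 CPM in the mutant (−0.92, standard error 0.18, FDR 0.0672). With the offset its log2 fold change was −0.58 (FDR 0.154).

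**Figure D4:**
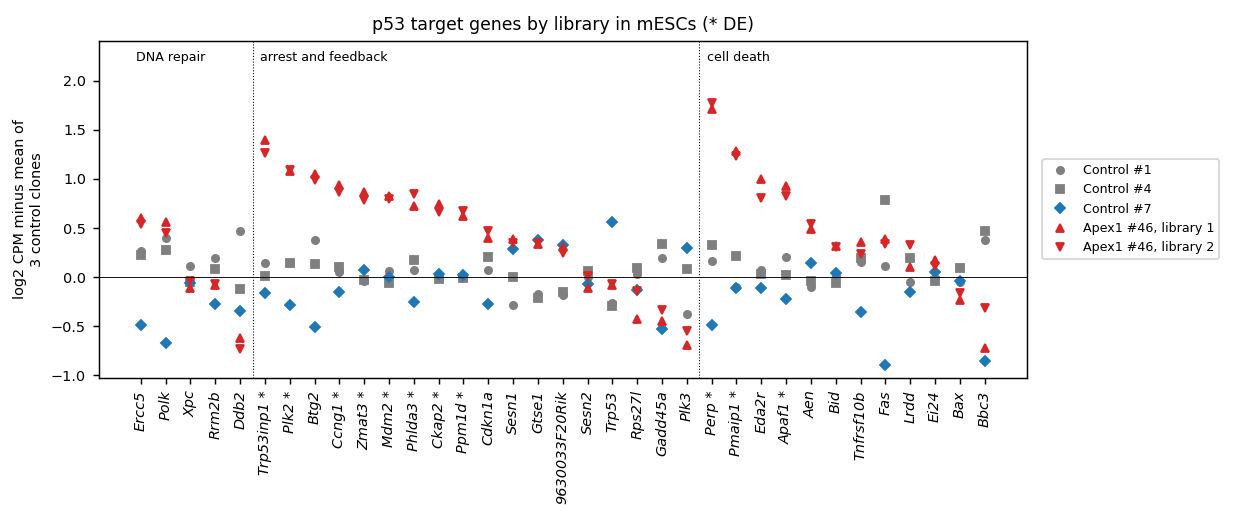
Log2 CPM minus the mean of the 3 control clones (vertical axis) for the 35 tested p53 target genes (horizontal axis), grouped by role, 1 point for each library, with an asterisk on the 11 DE genes. The Apex1 libraries exceed every control for all 11, and lie within the controls for Trp53.

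The genes with the largest rises, taken among DE genes that averaged 2 or more on the log2 CPM scale, also included genes outside the list of p53 targets. Sfn (ENSMUSG00000047281), the 14-3-3 protein stratifin, which human p53 induces, had 27.8, 29.2 and 34.7 CPM in the controls and 94.3 and 105 CPM in the mutant (1.71, standard error 0.22, FDR 0.0272). Ptpn14 (ENSMUSG00000026604), a tyrosine phosphatase that restrains YAP, had 60.4, 52.1 and 55.8 CPM against 172 and 160 CPM (1.57, standard error 0.18, FDR 0.0272). Both genes passed in the fit with the offset too, with FDR 0.033 and 0.031. Cd80, a co-stimulatory membrane protein of immune cells, had 4.95, 5.91 and 8.60 CPM against 26.7 and 23.4 CPM (1.96, standard error 0.30, FDR 0.0377).

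Further large rises were those of Fgfbp1, an FGF carrier (2.35, FDR 0.0887), Cyyr1 (2.07, FDR 0.0528), Arhgef5 (1.77, FDR 0.0377), Cdcp1 (1.64, FDR 0.0777), the aminopeptidase gene Lnpep (1.60, FDR 0.0557), Klhdc5 (1.56, FDR 0.0377) and the hyaluronidase gene Hyal1 (1.54, FDR 0.0963). With the offset Cdcp1 and Hyal1 had log2 fold changes of 1.48 and 1.56 and FDR values of 0.104 and 0.103.

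Among the lowered genes of that abundance, Egr1 (ENSMUSG00000038418), an immediate early zinc finger factor, fell most. It had 59.2, 64.2 and 125 CPM in the controls and 7.95 and 9.99 CPM in the mutant (−3.21, standard error 0.50, FDR 0.0377). The mutant was below the range of 43.9 to 76.5 CPM in the Neil1- and Neil2-mutant clones as well. Ppp1r16b, a phosphatase subunit, had 54.3, 90.0 and 62.1 CPM against 14.0 and 12.5 CPM (−2.36, standard error 0.49, FDR 0.0700). It had 21.5 to 62.9 CPM in the Neil1- and Neil2-mutant clones, and against these it did not pass (−1.14, FDR 0.124).

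Other large falls spanned several kinds of genes. They were Pilra (−3.00), the small nucleolar RNA gene Snord100 (−2.46), Pbld1 (−1.93), Cpne9 (−1.85), the tRNA methyltransferase gene Lcmt2 (−1.85), the chemokine receptor gene Cxcr2 (−1.76), Plac8 (−1.75), Trim43b (−1.70) and Aurkc, an Aurora kinase of meiosis (−1.68), with FDR values from 0.0438 to 0.096. Snord100 lies within a host gene, so that its count is uncertain. Snord100, Pbld1, Lcmt2, Cxcr2, Trim43b and Aurkc did not pass with the offset, at FDR values from 0.101 to 0.163. Their log2 fold changes were then −1.94, −1.89, −1.88, −1.82, −1.73 and −1.30, so that those of Pbld1, Lcmt2, Cxcr2 and Trim43b hardly moved.

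Egr1 was the only DE gene, 0 raised and 1 lowered, among 25 tested AP-1 and immediate early genes, whose median log2 fold change was −0.42 and, with the offset, −0.11. Both Apex1 libraries were below every control for 12 of the 25 and above for 2, against 25.7% and 24.3% of all tested genes. Among all tested genes 1.57% were raised and 1.13% lowered. Fos had 12.2, 11.8 and 7.31 CPM in the controls and 3.99 and 4.45 CPM in the mutant (−1.31, standard error 0.38, FDR 0.118), and 12.3 to 24.6 CPM in the Neil1- and Neil2-mutant clones. Jun had 34.7, 36.8 and 7.98 CPM in the controls and 11.2 and 12.1 CPM in the mutant (−1.19, FDR 0.375). For Jun the groups overlapped through clone #7. Fosb had 5.59, 6.24 and 0.821 CPM in the controls and 0.634 and 0.388 CPM in the mutant (−3.01, standard error 1.00, FDR 0.15), which lay below every control and closest to clone #7. Without clone #7 the list held 0 raised and 9 lowered genes, where 12.2% of the tested genes were lowered.

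The markers of undifferentiated cells remained abundant in the mutant. Pou5f1, which encodes Oct4, had 868, 867 and 887 CPM in the controls and 618 and 677 CPM in the mutant (−0.43, standard error 0.16, FDR 0.175). Nanog had 669, 703 and 822 CPM against 604 and 573 CPM (−0.31, FDR 0.376), Sox2 had 470, 543 and 433 CPM against 343 and 359 CPM (−0.45, FDR 0.195), and Esrrb had 527, 492 and 606 CPM against 558 and 556 CPM (0.05, FDR 0.913). Zfp42, also known as Rex1, and Dppa5a differed by −0.31 (FDR 0.364) and −0.58 (FDR 0.234). Of 36 tested pluripotency genes 0 were raised and 0 lowered, where 1.57% and 1.13% of all tested genes were. Of the 36, 16 were below every control in both Apex1 libraries and 1 above, and the median of the list was −0.19. Klf4 had 290, 268 and 219 CPM against 156 and 179 CPM (−0.63, FDR 0.16) and Klf2 had 214, 250 and 209 CPM against 112 and 145 CPM (−0.81, FDR 0.103). With the offset the median of the list was −0.105. The log2 fold changes were then −0.25 for Pou5f1, −0.31 for Nanog, −0.37 for Sox2, 0.03 for Esrrb and −0.26 for Zfp42. They were −0.06 for Dppa5a, −0.49 for Klf4 and −0.35 for Klf2. Among all tested genes 25.7% were below every control and 24.3% above. Without clone #7 the list held 3 raised and 7 lowered genes, where 11.8% and 12.2% of the tested genes were. With the offset as well 3 were raised and 2 lowered, against 9.43% and 8.59%, and the median was 0.03.

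Markers of the epiblast after implantation changed in both directions. Among 23 tested genes 3 were raised and 1 lowered, where 1.57% and 1.13% of all tested genes were. Both Apex1 libraries were above every control for 8 of the 23 and below for 10, and the median was −0.23. Fgf5, the standard marker of the primed epiblast, had 0.287, 0.594 and 0.508 CPM in the controls and 2.72 and 2.75 CPM in the mutant (2.56, standard error 0.46, FDR 0.0526). Wnt8a, a Wnt ligand of the primitive streak, had 2.12, 2.15 and 2.42 CPM against 8.68 and 8.62 CPM (1.96, standard error 0.36, FDR 0.0557). Cdh2, N-cadherin, had 6.60, 6.50 and 6.26 CPM against 17.5 and 15.0 CPM (1.34, FDR 0.0909), and an FDR of 0.148 with the offset. Otx2, another factor of this stage, had 22.4, 34.5 and 24.9 CPM against 26.5 and 24.4 CPM (−0.09, FDR 0.872). Lef1, the partner of beta-catenin, had 76.9, 89.4 and 52.0 CPM against 30.3 and 28.3 CPM (−1.31, standard error 0.30, FDR 0.0831). Its level in the mutant lay within the 21.6 to 30.9 CPM of the Neil1- and Neil2-mutant clones, while all 3 controls lay above that range.

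Signals that pattern the early embryo gave a few DE genes. In the Nodal pathway 1 of 19 tested genes was raised and 0 lowered, where 1.57% and 1.13% of all tested genes were, and without clone #7, 6 were raised and 2 lowered, against 11.8% and 12.2%. This was the ligand Nodal (ENSMUSG00000037171), with 110, 119 and 126 CPM in the controls and 192 and 206 CPM in the mutant (0.75, standard error 0.15, FDR 0.0647). Its feedback inhibitors Lefty1 and Lefty2 overlapped between the groups, with 18.6, 31.8 and 38.7 CPM against 28.7 and 37.4 CPM (0.15, FDR 0.835) and 17.4, 31.0 and 32.6 CPM against 31.2 and 29.8 CPM (0.18, FDR 0.793). Of 40 tested genes of Wnt, FGF and BMP responses 2 were raised and 1 lowered, against 1.57% and 1.13% of all tested genes. These were Wnt8a, the Wnt target Sp5, with 1.00, 0.817 and 0.469 CPM against 2.50 and 3.46 CPM (1.95, FDR 0.0887), and Lef1.

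A few genes of the germ layer lists were raised. In the mesoderm list 1 of 21 tested genes was raised and 0 lowered, where 1.57% and 1.13% of all tested genes were, with a median log2 fold change of 0.57. Both Apex1 libraries were above every control for 9 of the 21 and below for 3, against 24.3% and 25.7% of all tested genes. Without clone #7, 7 were raised and 2 lowered, against 11.8% and 12.2%. Eomes, a T-box factor of the primitive streak, had 7.17, 8.77 and 8.41 CPM against 16.1 and 15.4 CPM (0.96, standard error 0.23, FDR 0.0875), and 9.15 to 12.3 CPM in the Neil1- and Neil2-mutant clones. Its relative T, Brachyury, had 1.08, 0.854 and 0.665 CPM against 2.09 and 2.44 CPM (1.38, FDR 0.154). Mesp1, of the same list, went the other way at a low level (−1.685, FDR 0.273), and the groups overlapped. In the endoderm list 3 of 35 were raised and 0 lowered, against 1.57% and 1.13% of all tested genes. Without clone #7, 6 were raised and 2 lowered, against 11.8% and 12.2%. Foxa2, a forkhead factor, had 0.108, 0.186 and 0.313 CPM against 1.58 and 1.24 CPM (2.81, standard error 0.60, FDR 0.0736), Fst, the activin antagonist follistatin, had 1.97, 2.82 and 2.15 CPM against 8.49 and 7.20 CPM (1.77, FDR 0.0557), and the collagen gene Col4a2 rose by 0.76 (FDR 0.0841). Col4a2 had 69.4 and 75.6 CPM in the mutant and 63.4 to 87.3 CPM in the Neil1- and Neil2-mutant clones, within whose range the mutant lay.

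Other endoderm factors did not pass the test. Gata6 had 1.18, 2.12 and 2.27 CPM in the controls and 3.42 and 2.75 CPM in the mutant (0.75, FDR 0.435), while Gata4 (−0.15, FDR 0.82) and Sox17 (0.25, FDR 0.839) overlapped. In the neuroectoderm list 20 of 29 genes were tested, of which 0 were raised and 0 lowered, against 1.57% and 1.13% of all tested genes. The median was −0.36 and, with the offset, −0.20. Both Apex1 libraries were below every control for 5 of the 20, against 25.7% of all tested genes. They were above for 2, Zfp521 (1.275, FDR 0.196) and Nes (0.525, FDR 0.245), against 24.3%. Pax6, a neural factor, had 7.17, 7.65 and 7.70 CPM against 4.15 and 3.88 CPM (−0.89, FDR 0.229). The Neil1- and Neil2-mutant clones had 1.99 to 3.65 CPM of Pax6, below the mutant. Pax3, of neural tube and neural crest, was too low to be tested, with at most 0.19 CPM in any of the 5 libraries. In a bulk sample, a few differentiated cells and a low level in every cell cannot be told apart.

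Genes of stress-induced amino acid supply and of energy metabolism were compared next. ATF4 targets make amino acid transporters and synthetic enzymes under nutrient or protein stress. Of 28 tested targets 0 were raised and 2 lowered, against 1.57% and 1.13% of all tested genes. Both Apex1 libraries were below every control for 18 and above for 1, against 25.7% and 24.3%. The median was −0.74, or −0.52 with the offset. Phgdh, the first enzyme of serine synthesis, had 321, 312 and 239 CPM in the controls and 136 and 140 CPM in the mutant (−1.07, standard error 0.24, FDR 0.0831). Ppp1r15a, the phosphatase subunit GADD34, had 50.1, 57.0 and 56.2 CPM against 34.9 and 34.5 CPM (−0.64, FDR 0.0990). Chac1, a glutathione-degrading enzyme, had 25.0, 41.4 and 18.7 CPM against 3.77 and 5.33 CPM (−2.65, standard error 0.77, FDR 0.122). Without clone #7, 0 were raised and 11 lowered, where 12.2% of the tested genes were lowered. With the offset 0 of the 28 were DE, and Phgdh had an FDR of 0.102. With the offset and without clone #7, 0 were raised and 9 lowered, against 9.43% and 8.59% of the tested genes, and the median was −0.63.

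Of 42 tested genes of hypoxia and glycolysis 0 were DE, where 2.70% of all tested genes were. Both Apex1 libraries were below every control for 24 and above for 3, against 25.7% and 24.3% of all tested genes. The median was −0.46, and the offset left it at −0.46. Among the 19 glycolytic enzymes and glucose or lactate transporters 17 were below every control and 0 above, against the same shares. Aldoa, aldolase A, had 3522, 3834 and 2820 CPM in the controls and 1753 and 1796 CPM in the mutant (−0.93, standard error 0.24, FDR 0.101). Hk2, hexokinase 2, had 435, 496 and 439 CPM against 302 and 290 CPM (−0.62, FDR 0.14). Without clone #7, 11 of the 19 were lowered, where 12.2% of the tested genes were. With the offset as well 10 were lowered, against 8.59%.

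Among the nuclear genes of the respiratory chain and ATP synthase, fold changes moved with the offset. Of 84 tested genes 0 were raised and 5 lowered, against 1.57% and 1.13% of all tested genes. Both Apex1 libraries were below every control for 64 and above for 0, against 25.7% and 24.3%. The median was −0.49, and −0.16 with the offset. The lowered genes were Atp5d (−0.83), Atp5g2 (−0.74), Atp5g1 (−0.76), Ndufs7 (−1.01) and Sdhc (−0.72), with FDR values from 0.0841 to 0.0995. With the offset 3 genes of the list were lowered, of which Atp5g1 (FDR 0.0605) was the only 1 of these 5. Without clone #7, 0 were raised and 44 lowered, against 11.8% and 12.2% of the tested genes. With the offset as well 3 were raised and 19 lowered, against 9.43% and 8.59%. The 13 mitochondrially encoded subunits of the list held 0 counts in these files and were not analysed. Of 23 tested cholesterol synthesis genes 0 were raised and 2 lowered, against 1.57% and 1.13% of all tested genes. These were Fdps (−0.75, FDR 0.0693) and Mvd (−0.88, FDR 0.0736), which had FDR values of 0.176 and 0.189 with the offset. Without clone #7, 1 was raised and 6 lowered, against 11.8% and 12.2%. With the offset as well 0 were raised and 6 lowered, against 9.43% and 8.59%.

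In base excision repair, the pathway of Apex1 itself, 27 further genes were tested, of which 0 were raised and 1 lowered, with a median of −0.19. Among all tested genes 1.57% were raised and 1.13% lowered. The lowered gene was the glycosylase gene Mutyh, with 24.1, 27.0 and 26.8 CPM in the controls and 15.7 and 13.8 CPM in the mutant (−0.80, standard error 0.19, FDR 0.0887), and it had an FDR of 0.121 with the offset. Among glycosylases that act on oxidized bases or on formylcytosine, Neil1 (−0.16, FDR 0.933), Neil2 (−0.48, FDR 0.653) and Tdg (0.03, FDR 0.943) overlapped between the groups. Parp1, the strand break sensor, had 821, 750 and 903 CPM against 621 and 613 CPM (−0.41, FDR 0.22) and Polb, the polymerase that fills the gap, 25.0, 24.7 and 21.0 CPM against 17.5 and 17.9 CPM (−0.41, FDR 0.297). Xrcc1 (0.27, FDR 0.42) and Lig3 (0.52, FDR 0.429) were not DE, and Xrcc1 was raised with the offset (0.62, FDR 0.071). Of 58 tested genes of other repair pathways 0 were DE in either direction, where 2.70% of all tested genes were, and their median was 0.11. Without clone #7, 12 were raised and 3 lowered, where 11.8% and 12.2% of the tested genes were, and with the offset as well 7 and 3, against 9.43% and 8.59%. Nearest to the limit was Rad51c, with 31.8, 34.9 and 30.5 CPM against 19 and 19.6 CPM (−0.75, FDR 0.101), which was lowered with the offset (FDR 0.0894).

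Of 38 tested oxidative stress genes 0 were raised and 1 lowered, where 1.57% and 1.13% of all tested genes were. Without clone #7, 5 were raised and 9 lowered, against 11.8% and 12.2%. This was Prdx5, a peroxiredoxin, with 61.3, 66.7 and 49.9 CPM against 28.5 and 32.9 CPM (−0.95, FDR 0.0987), and an FDR of 0.121 with the offset. Nqo1, a target of NRF2, had 17.4, 17.2 and 21.2 CPM against 30.2 and 27.7 CPM (0.64, FDR 0.114; 0.74, FDR 0.078 with the offset), and Hmox1 had 105, 124 and 178 CPM against 95.0 and 99.0 CPM (−0.48, FDR 0.322). Of 18 tested genes of DNA methylation and demethylation 0 were DE, where 2.70% of all tested genes were. Tet1 (0.34, FDR 0.475), Tet2 (0.05, FDR 0.862), Dnmt3a (−0.24, FDR 0.73), Dnmt3b (−0.59, FDR 0.263) and Dnmt3l (−0.13, FDR 0.767) did not pass.

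**Figure D5:**
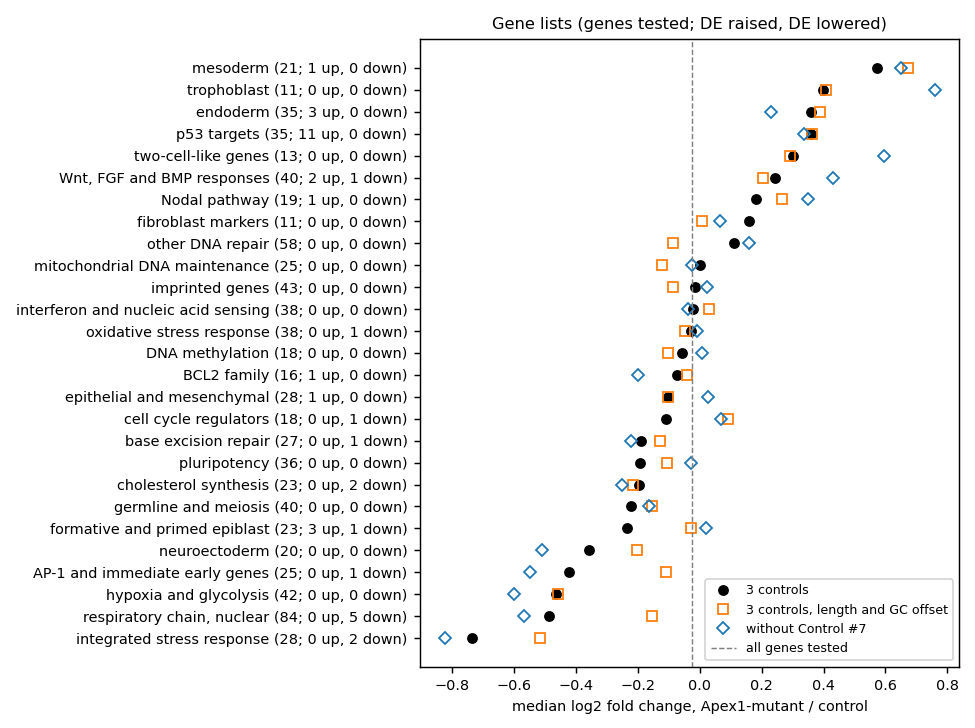
Median log2 fold change (horizontal axis) of the tested genes of each gene list (vertical axis), against all 3 controls, with the offset for length and GC content, and without Control #7, with the median of all tested genes as a dashed line. The median of p53 targets lies between 0.34 and 0.36 in these fits, and that of the respiratory chain moves from −0.49 to −0.16 with the offset.

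The same clone was set against the Neil1- and Neil2-mutant mESC clones, which carry mutations in other enzymes of base excision repair and share the cell line and method. The clones used were Neil1 #7 and #9 and Neil2 #1, #11 and #14. Here 2863 of 16958 genes were DE (16.9%). Both comparisons use the same Apex1 libraries, so that they are not independent. Of the 266 genes raised against the controls 233 were also raised here, and of the 192 lowered genes 164 were also lowered. All 11 raised p53 targets were DE here too, in the same direction and with both Apex1 libraries above every Neil1 and Neil2 clone. Their log2 fold changes ran from 0.62 for Ppm1d to 1.56 for Trp53inp1. Cdkn1a had 30.8 to 67.6 CPM in the Neil1- and Neil2-mutant clones, and its log2 fold change here was 0.90 (FDR 0.0524). Egr1 (−2.83, FDR 0.0132), Fgf5 (3.31, FDR 0.0061) and Nodal (1.09, FDR 0.00606) also passed, while Pilra (−1.75, FDR 0.101), Cxcr2 (−1.03, FDR 0.109), Cpne9 (−0.94, FDR 0.119), Ppp1r16b (−1.14, FDR 0.124), Plac8 (−0.70, FDR 0.186), Eomes (0.46, FDR 0.193) and Mutyh (−0.39, FDR 0.186) did not.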

How the data were processed

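RNA-seq libraries of mESCs were used, with EB and EB + RA libraries of the control and Apex1 clones for the Apex1 locus. The authors prepared unstranded TruSeq libraries, aligned reads with TopHat version 2.0.9 and Bowtie version 2.1.0 to NCBIM37 and obtained gene-level totals from HTSeq-count version 0.5.4, and the deposited values are raw counts without normalization. The strand setting of the counting is not given in the sources used here. Each file lists 37991 genes, of which 37205 were found in the NCBIM37 annotation. The rows for reads without a feature (6.18% to 7.72% of mESC reads), ambiguous reads (1.89% to 2.24%) and reads aligned to more than 1 place (16.4% to 19.9%) were left out of library sizes and tests.

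Counts were compared with edgeR version 4.0.16 (R version 4.3.3, limma version 3.58.1) by the robust quasi-likelihood test after filterByExpr and TMM, with Benjamini-Hochberg adjustment. The 2 Apex1 libraries were summed. The fit held 9 clones of 4 genotypes, and the single Apex1 sample was assumed to vary like the others. Neil1 clone #11 was left out, because its mESC file holds no counts on most of chromosome X. Standard errors come from the same fit. Log2 CPM used a prior count of 2. On simulated counts edgeR recovered 61 of 100 genes changed 2-fold and 95 of 100 changed 4-fold, with 22 false calls among 16565 genes. DESeq2 recovered 82 and 99 of 100, with 75 false calls among 14985 genes. Whether these rates hold for genes of low count was not tested. Nor was it tested whether they hold with a control clone that stands apart or a trend over gene length.

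Genes were named by a rule: Apex1 and its neighbours, the 12 largest rises and falls among DE genes whose mean log2 CPM reached 2, with both Apex1 libraries beyond all controls, up to 6 genes with the smallest FDR in each of 28 gene lists, and a set of defining genes. Not all of these are named, and 1 of the 12 largest falls is not reported here. Members, lists and tests were chosen with earlier results of these data known. The fits with an offset for exon length and GC content were added after seeing the data. Other alternatives were DESeq2 version 1.42.0, RLE size factors, other filters, the duplicates as separate samples, and each library left out in turn. Guides were placed by exact match to NCBIM37. Summaries used Python version 3.11.15, pandas version 2.3.3, numpy version 2.4.6 and scipy version 1.17.1.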

Additional observations from a re-analysis of the deposited data

Results flagged for a closer look

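Osgep, the neighbour of Apex1, was flagged because all Apex1 libraries moved one way in mESCs and the opposite way after differentiation. The log2 ratios of the 2 Apex1 libraries to the control mean were −1.09 and −0.98 in mESCs, 0.20 and 0.22 in EBs, and 0.16 and 0.01 in EBs + RA. The mean log2 ratio was higher than in mESCs by 1.24 in EBs and by 1.11 in EBs + RA. The difference was not tested, and the values in EBs and EBs + RA are within or close to the range of the controls.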

How the results depend on the processing

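The 458 DE genes became 1723 with DESeq2, 0 with the spread from the control clones alone, 2751 (edgeR) and 3149 (DESeq2) with the Apex1 libraries as separate samples, 6140 with the replicate block on that design, 767 with no filter on low counts, 60 at an FDR below 0.05, and 3038 with the offset for length and GC content without Control #7. They ranged from 0 to 4050 with 1 library left out: 13 without Control #1, 0 without Control #4, 4050 without Control #7, and 161 and 1142 without either Apex1 library. Against the Neil1 and Neil2 clones, 2863 became 1354 at an FDR below 0.05 and ranged from 2184 to 4448 with 1 library left out, the highest without Control #7. The cause was not tested, other than that duplicates counted as separate samples shrink the spread by their construction. The log2 fold change of Apex1 was 2.72 with the spread from the control clones alone (FDR 0.213), 3.21 with the replicate block, and 2.51 to 3.22 with 1 library left out, with an FDR of 0.117 without Control #1 and 0.138 without Control #4. The replicate numbers pair nothing, since those of Apex1 mark duplicates of 1 clone, and same-numbered libraries gave correlations of −0.0991 and 0.126.

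Some genes that were not DE changed sign. With the offset the log2 fold changes were 0.01 for Sod1, 0.04 for Crabp1, −0.07 for Uhrf2, 0.10 for Neil1, −0.12 for Tdg, −0.21 for Tet2 and 0.03 for Gata4. With the offset and without Control #7 they were 0.03 for Bak1, −0.03 for Uhrf2, 0.21 for Trp53, 0.04 for Neil1, −0.03 for Tdg, −0.26 for Tet2, 0.12 for Dnmt3l and 0.06 for Gata4. With the replicate block they were 0.20 for Trp53, 0.11 for Dnmt3a and 0.02 for Dnmt3l. With 1 library left out they ranged from −0.28 to 0.20 for Trp53, −0.02 to 0.13 for Esrrb, −0.22 to 0.11 for Otx2, −0.04 to 0.17 for Tdg, −0.05 to 0.13 for Tet2, −0.42 to 0.11 for Dnmt3a, −0.23 to 0.02 for Dnmt3l, −0.10 to 0.39 for Lefty1 and −0.05 to 0.34 for Lefty2. At this depth genes below 1 CPM, such as Foxa2 and Fgf5 in the controls, rest on few counts.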

Other observations

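Lists not described above held 0 DE genes, apart from 1 raised and 0 lowered among 28 tested epithelial and mesenchymal genes, which was Cdh2. There were 0 DE genes among 43 tested imprinted genes (median log2 fold change −0.02), 40 germline and meiosis genes (−0.22), 38 interferon and nucleic acid sensing genes (−0.02), 25 genes of mitochondrial DNA maintenance (0.00), 13 genes of the two-cell-like state (0.30) and 11 trophoblast genes (0.40). Among all 16958 tested genes 2.70% were DE in edgeR and 3324 had an unadjusted p below 0.05. The 11 tested markers of fibroblasts and feeder cells also held 0 DE genes. Both Apex1 libraries were above every control for 4 of them, Col3a1, Fbn1, Tagln and Acta2, and below for 1, Thy1. Among all tested genes 24.3% were above every control and 25.7% below. The part of other cells in the results above was not tested. Col3a1 had 0.0359, 0.0743 and 0 CPM in the controls and 0.317 and 0.388 CPM in the mutant (log2 fold change 3.10, edgeR FDR 0.1), and Col1a1 had 8.54, 6.76 and 3.56 CPM in the controls and 3.39 and 4.17 CPM in the mutant.

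Medians by chromosome were also compared. Over chromosomes 1 to 19 and X, the median log2 difference from the mean of the controls ran from −0.15 on chromosome 7 to 0.17 on chromosome 12 in 1 Apex1 library and from −0.12 on chromosome 15 to 0.13 on chromosome 12 in the other, counting genes that averaged 5 CPM or more. In the control clones, each against the mean of the other controls, the medians ran from −0.09 to 0.14. In EBs chromosome 12 was at 0.267 and 0.305 in the Apex1 libraries and the other chromosomes between −0.13 and 0.06. In EBs + RA it was at 0.23 and 0.29 and the others between −0.29 and 0.04. Controls ran from −0.03 to 0.04 in EBs and from −0.07 to 0.07 in EBs + RA.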
